A study of Mus musculus with 4 samples.

Results

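The regions described here are 199 distal gains of accessibility, out of 97699 peaks of open chromatin measured by ATAC-seq in MC38/gp100 cells, a mouse colon cancer line labelled as carrying gp100. They were chosen by measured levels and by position: a mean level over both groups of at least 6.5 log2 normalised reads, a level at least 0.6 log2 higher under GSK3368712 than in DMSO, and a centre more than 1 kb from either end of every protein-coding gene of RefSeq. A level of 6.5 is 90.5 normalised reads and a difference of 0.6 log2 is a ratio of 1.52. The groups are 2 libraries of cells kept for 5 days in 1 µM GSK3368712, which inhibits the type I class of protein arginine methyltransferases, and 2 libraries of cells kept for 5 days in DMSO, its solvent. All 4 libraries come from the same line in the same medium. The labels give no separate culture for each library and no other line. Every level below is the authors' deposited mean of a group, with no value per library, so no difference can be set against the spread between libraries and no test is given.

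Distal open sites are mostly enhancers, insulators and unannotated starts of transcripts, where transcription factors keep nucleosomes off the DNA. Type I methyltransferases dimethylate arginines asymmetrically, on RNA-binding proteins as well as histones, and such marks on histone tails are found at active enhancers and promoters. Assignment to the nearest gene, or to the gene around a peak, is a position and not evidence that the peak regulates that gene.

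The deposited levels summed to 24524700 normalised reads under GSK3368712 and 25913100 in DMSO over all peaks, and the sequencing depth of each library is unknown. Of 29 genes of epithelial junctions and keratins, 11 had a gene-end peak, a peak centred within 1 kb of a gene end, assigned to them. Keratin gene Krt8 and plakoglobin gene Jup were among them, while Epcam, Cdh1, Krt18, Krt19 and Krt20 had none. Of 18 blood cell markers 10 had a gene-end peak, with none at Ptprc, which encodes the pan-leukocyte antigen CD45. Only 3 of the 10 reached the level minimum, at Csf1r, Spi1 and Tmem119. Those of Spi1 and Tmem119 were strong, at 9.34 and 9.7 log2 under GSK3368712 and 9.22 and 9.69 in DMSO. Gene-end peaks of the blood cell list summed to 2052 normalised reads under GSK3368712 and 2022 in DMSO. Of 14 fibroblast and endothelial markers 6 had one, and these summed to 2123 under GSK3368712 and 2148 in DMSO. Of the 6, 3 reached the level minimum, at Col1a1, Col1a2 and Dcn, and Col1a1 had 10.64 log2 under GSK3368712 and 10.62 in DMSO. Of 7 melanocyte markers Mitf alone had one, at 1243 under GSK3368712 and 1031 in DMSO, and Pmel, the gene for gp100, had none.

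Only 5 distal gains overlapped the start of a transcript in the RefSeq table, which covers 250 bases before to 50 after each listed start. Their sequences are shown because they are the gains with a transcript start under the open site, and they come from RefSeq on GRCm38.p6, the assembly behind mm10. They run 5′ to 3′ on the transcript's strand, with matches to the 8 motifs searched in capitals. The Arap1 window is chr7:101394138-101394437 on the plus strand. The Gm41527 stretch is chr17:12370309-12370576, the Gm30104 window chr1:131733619-131733918, the Gm46095 window chr1:82371946-82372245 and the Gm16287 stretch chr4:139180606-139180664, all on the minus strand. For Gm41527 and Gm16287 only the bases inside the peak are given.
Arap1: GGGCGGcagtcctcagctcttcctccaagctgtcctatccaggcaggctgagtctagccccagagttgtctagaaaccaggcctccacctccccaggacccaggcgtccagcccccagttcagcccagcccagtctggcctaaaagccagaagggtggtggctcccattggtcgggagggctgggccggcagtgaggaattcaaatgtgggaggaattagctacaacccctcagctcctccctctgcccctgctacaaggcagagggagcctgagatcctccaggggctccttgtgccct
Gm41527: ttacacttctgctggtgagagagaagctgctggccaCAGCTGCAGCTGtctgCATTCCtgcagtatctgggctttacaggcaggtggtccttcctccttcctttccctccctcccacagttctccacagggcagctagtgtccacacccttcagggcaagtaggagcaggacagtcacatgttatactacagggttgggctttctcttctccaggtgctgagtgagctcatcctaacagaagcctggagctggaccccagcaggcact
Gm30104: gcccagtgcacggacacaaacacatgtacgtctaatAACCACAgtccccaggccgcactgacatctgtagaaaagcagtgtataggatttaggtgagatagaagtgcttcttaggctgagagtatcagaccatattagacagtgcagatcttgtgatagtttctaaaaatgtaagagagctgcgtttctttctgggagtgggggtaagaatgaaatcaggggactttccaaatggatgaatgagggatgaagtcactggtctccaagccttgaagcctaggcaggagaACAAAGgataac
Gm46095: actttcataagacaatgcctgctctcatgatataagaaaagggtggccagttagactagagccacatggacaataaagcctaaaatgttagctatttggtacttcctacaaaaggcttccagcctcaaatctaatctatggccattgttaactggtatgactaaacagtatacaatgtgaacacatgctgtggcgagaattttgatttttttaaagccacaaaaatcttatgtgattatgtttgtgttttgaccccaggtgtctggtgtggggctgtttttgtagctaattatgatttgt
Gm16287: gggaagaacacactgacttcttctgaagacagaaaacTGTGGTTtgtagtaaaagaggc

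Of these, Arap1 is the protein-coding gene, encoding a GTPase-activating protein for Arf proteins, and the others are long noncoding RNA genes. RefSeq lists 3 starts for Arap1, at positions 101348069, 101385526 and 101394388 of chromosome 7. The peak over the first, outer start had a level of 8.87 log2 under GSK3368712 and 8.81 in DMSO, a difference of 0.06. No peak of the table lay over the second. The peak over the third, inside the gene, had 8.18 under GSK3368712 and 7.12 in DMSO, a difference of 1.06. The next peak downstream, 476 bp wide, had 6.8 under GSK3368712 and 6.95 in DMSO. Weaker peaks of Arap1, below the level minimum, had differences from -0.56 to 0.55 log2.

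The motifs were searched on both strands as AP-1 TGANTCA, CRE TGACGTCA, TEAD GGAATG, RUNX TGTGGTT, ETS CCGGAAGT, E-box CAGCTG, GC box GGGCGG and SOX ACAAAG. The Arap1 window held 1 GC box, found in 35.7% of the 32851 windows of the table. The Gm41527 stretch held 2 E-boxes and 1 TEAD motif, found in 16.3% and 14.7% of all windows. Gm30104 held 1 RUNX and 1 SOX motif, found in 5.27% and 18.7%, and Gm16287 held 1 RUNX motif. Gm46095 held none of them, and none of the sequences shown held AP-1, CRE or ETS letters, which 7.81%, 1.79% and 3.89% of all windows hold. G and C made up 62.3% of the Arap1 window and 37.7% of the Gm46095 window, against a median of 52.7% over all windows. Among the 196 gains on the chromosomes the table covers, the 5 are 2.55%. The share was 1.46% of distal losses and 5.88% of the other distal peaks.

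A further gain, 1352 bp wide inside the laminin gene Lama5 on chromosome 2 from 180178544 to 180179895, contains both mature arms of the microRNA gene Mir7005, on the minus strand. The arms are shown with the seed, bases 2 to 8, in capitals.
mmu-miR-7005-5p: cCUGGGGAugggaggaccagca
mmu-miR-7005-3p: cUGUGCCUgcuacccaucccuugca
The peak had 159 normalised reads under GSK3368712 and 95.01 in DMSO. These accessibility data hold no measure of the microRNA itself.

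Gains were a small minority of distal open sites and sat among the weaker of them. The 199 gains are 0.556% of the 35776 distal peaks at this level or above, a share that the rule itself sets. The mirrored rule, at least 0.6 log2 lower under GSK3368712, finds 2392 distal losses, or 6.69%. With groups scaled to their summed reads the same thresholds find 307 distal gains and 1672 distal losses, and with differences centred on their median 307 gains and 1749 losses. At gene ends the same thresholds find 16 gains among 11180 peaks, or 0.143%, and 79 losses, or 0.707%. The median difference over all distal peaks was -0.09 log2.

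The gains had a median of 176 normalised reads under GSK3368712, with quartiles of 136 and 243, and a median of 100.4 in DMSO, with quartiles of 79.3 and 146. The other distal peaks, neither gains nor losses, had medians of 212 under GSK3368712 and 223 in DMSO. These levels describe the set, since the rule fixes the difference between the groups. Their differences ran from 0.60 to 1.76 log2 with a median of 0.72. Of the 199, 27 differed by at least 1 log2, 64 by at least 0.8 and 85 by less than 0.7, so many lie near the threshold.

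**Figure D1:**
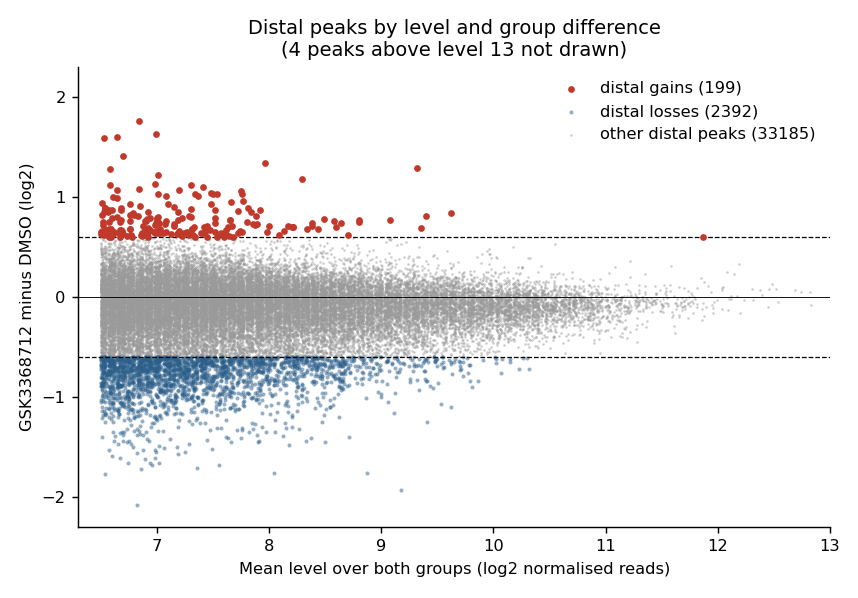
Each point is a distal peak with a mean level of at least 6.5, placed by its mean level over both groups (x, log2 normalised reads) and by GSK3368712 minus DMSO (y, log2), with dashed lines at 0.6 and -0.6. The 199 gains thin out toward higher levels, and 4 peaks above level 13 are not drawn.

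The share of distal peaks that were gains fell off steadily with level. It was 1.06% at levels of 6.5 to 7, 0.761% at 7 to 7.5, 0.597% at 7.5 to 8, 0.236% at 8 to 9 and 0.0892% at 9 and above. Losses thinned in the same way, at 10.3%, 8.88%, 6.94%, 5.19% and 1.62% in the same bins. Weak peaks are measured with more counting error than strong ones, and without values per library that error was not estimated here.

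The largest differences lay near genes of unlike functions. The gain with the largest difference lies 6.37 kb from Ada, the gene for adenosine deaminase, on chromosome 2 from 163756049 to 163757163. It had 176 normalised reads under GSK3368712 and 52.0 in DMSO, a difference of 1.76 log2. The second lies inside Sorcs2, a sorting receptor gene, 1.57 kb from one of its ends on chromosome 5 from 36018135 to 36019370, with 191 reads under GSK3368712 and 61.8 in DMSO. These peaks had about 3 times as many reads under GSK3368712, with ratios of 3.39 and 3.10.

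A gain inside Smg6, which encodes an endonuclease of nonsense-mediated mRNA decay, had 149 reads under GSK3368712 and 49.2 in DMSO. It lies on chromosome 11 from 75046909 to 75047664, 114 kb from the nearest end of a coding gene. A gain 60.5 kb from Trp53i11, named for its induction by p53, had 139 reads under GSK3368712 and 46.2 in DMSO, the lowest DMSO level of the set. Pdzd2, a PDZ domain gene, held a gain with 151 reads under GSK3368712 and 56.9 in DMSO. All 5 of these peaks were weak in DMSO, at 46.2 to 61.8 reads.

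Stronger peaks with large differences followed. A gain 39.1 kb from Col5a1, which encodes a chain of type V collagen, had 357 reads under GSK3368712 and 141 in DMSO. The broad gain inside Ahnak, the gene of a giant scaffold protein at the plasma membrane, had 904 reads under GSK3368712 and 370 in DMSO. A gain inside Jup, the gene for plakoglobin of desmosomes and adherens junctions, had 434 reads under GSK3368712 and 191 in DMSO. Their differences were 1.34, 1.29 and 1.18 log2. The Jup peak lies on chromosome 11 from 100391097 to 100391729, whereas the gene-end peak of Jup had 11.23 log2 in both groups.

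Weaker gains made up the rest of the largest 15. A gain 51.6 kb from Dcn, the gene for the matrix proteoglycan decorin, had 135 reads under GSK3368712 and 55.7 in DMSO. One inside the peptidase gene Cpq had 180 reads under GSK3368712 and 77.2 in DMSO. A narrow gain of 193 bp lying 3.02 kb from Ccn4, which encodes a matricellular protein, had 174 reads under GSK3368712 and 79.3 in DMSO. Of these the Ccn4 peak was called in both GSK3368712 libraries and in 0 DMSO libraries. Next came a gain 12.7 kb from Capzb, the gene for the beta subunit of actin capping protein, with 215 reads under GSK3368712 and 99.04 in DMSO. The gain 198 kb from Tpra1 had 132 reads under GSK3368712 and 60.5 in DMSO. The gain near Tmem119, known as a microglial marker, had 232 under GSK3368712 and 108 in DMSO, and the one 66.4 kb from the neuropeptide gene Npvf had 155 under GSK3368712 and 73.5 in DMSO. All 4 differences were between 1.08 and 1.12 log2.

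**Figure D2:**
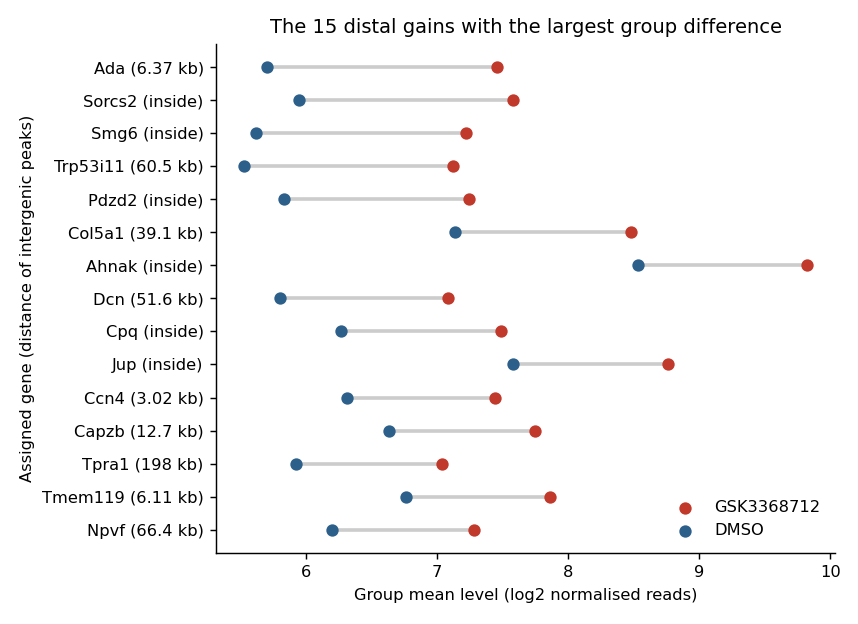
Group mean levels (x, log2 normalised reads) of the 15 distal gains with the largest difference (y, assigned gene, with the distance for peaks outside genes), GSK3368712 in red and DMSO in blue. DMSO levels lie between 5.53 and 6.76 for 12 of them, and the Col5a1, Ahnak and Jup peaks start higher, at 7.14, 8.53 and 7.58.

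A few gains were strong or broad. The strongest lies 5.33 kb from Tubb3, a beta-tubulin gene of neurons, on chromosome 8 from 123425837 to 123428848, with 4513 reads under GSK3368712 and 2978 in DMSO. At 3012 bp it is also the second widest, and its difference of 0.60 log2 sits on the threshold. A gain of 697 bp lying 199 kb from Tpra1 had a level of 9.98 log2 under GSK3368712 and 9.14 in DMSO. A gain inside Ccdc33 had 861 reads under GSK3368712 and 491 in DMSO, and one 32.7 kb from Alox5ap, whose product is needed for leukotriene synthesis, had 809 under GSK3368712 and 501 in DMSO. Together with the Ahnak peak these are the 5 highest levels under GSK3368712 in the set.

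The widest gain is the Ahnak peak of 5390 bp, on chromosome 19 from 9004640 to 9010029. A second gain of 1976 bp follows it from 9011147 to 9013122, with 180 reads under GSK3368712 and 94.4 in DMSO. The exon or intron under these peaks is not given, because the gene table used here holds no exons. The other wide gains lie 400 kb from Tcf4, a basic helix-loop-helix factor gene, at 1637 bp, and 27.6 kb from Hhat, the Hedgehog acyltransferase gene, at 1627 bp. The Tcf4 peak had 252 reads under GSK3368712 and 148 in DMSO, and the Hhat peak 478 under GSK3368712 and 294 in DMSO. Only the Ahnak and Tubb3 peaks, 2 of 199, were 2000 bp or wider.

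Peaks at the thresholds show how the rule bounds the set. Just inside the level minimum lie gains assigned to Cd6, Dytn and Fgfbp1, at mean levels of 6.5, 6.5 and 6.51, and just outside it peaks assigned to Cacna2d4, Zfp385a and Cald1, all at 6.49. Just inside the minimum difference, at 0.60 log2, lie the Tubb3 peak and gains assigned to Cald1 and Arrdc3. Just outside it, at 0.59, lie peaks assigned to Cldn23, Usp2 and Gtf2f2. In all 11 gains have exactly 0.60 and 13 distal peaks have 0.59. By distance the nearest gains lie 1021 bp from Col14a1, 1155 bp from Tpm1 and 1212 bp from Neurod2, and the peaks left out next to them lie 999 bp from Gstp3, 965 bp from Tob1 and 936 bp from Gm39701.

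Gains were wider than other distal peaks of like level. Their median width was 710 bp, with quartiles of 538.5 and 920.5, against 629 bp for losses and 685 bp for the other distal peaks. Since width rises with level and gains are weak, the comparison was made within bins of level. The median was 602 bp for gains, 542 bp for losses and 538 bp for other distal peaks at 6.5 to 7, and 732.5 bp for gains, 612.5 bp for losses and 603 bp for others at 7 to 7.5. It was 761 bp for gains, 659 bp for losses and 663 bp for others at 7.5 to 8, and 1090 bp for gains, 775 bp for losses and 741 bp for others at 8 to 9. Gains thus had the highest median in each of these bins, with 85, 54, 35 and 19 gains in them, though the quartiles of gains and of other peaks overlap in every bin below 8. With 6 gains at 9 and above the medians were 1223.5 bp for gains, 912 bp for losses and 951.5 bp for others.

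**Figure D3:**
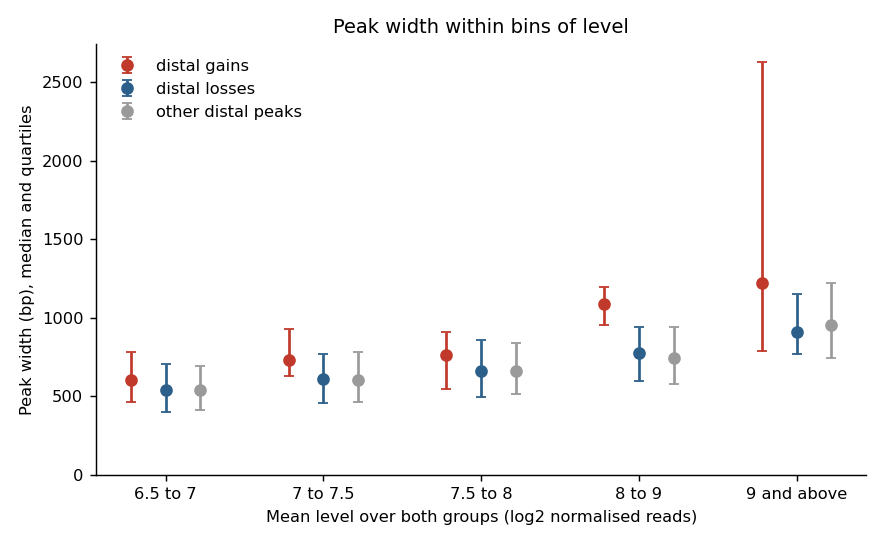
Peak width in bp (y) within bins of mean level (x, log2 normalised reads), with points at the median and bars from the lower to the upper quartile. At levels of 8 to 9 the lower quartile of the 19 gains, 954.5 bp, lies above the upper quartile of the other distal peaks, 942 bp.

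Gains lay farther from the ends of coding genes than the other distal peaks did, as did losses. The median distance to the nearest coding gene end was 27.6 kb for gains, with quartiles of 7.61 and 61.9 kb, 22.4 kb for losses and 13.7 kb for other distal peaks. Within each of the 5 level bins the median for gains was 22.2 to 42.3 kb, 20.5 to 26.0 kb for losses and 12.5 to 15.2 kb for other distal peaks. At levels of 7 to 7.5 losses lay farther than gains, at 22.2 kb for gains and 23.7 kb for losses. Inside genes it was 25.8 kb for gains, 20.2 kb for losses and 12.5 kb for others, and outside genes 29.8 kb for gains, 24.8 kb for losses and 15.2 kb for others. Gains and losses both lay farther from gene ends than the other distal peaks, inside and outside genes.

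The share of distal peaks that were gains was 0.373% at 1 to 5 kb and 0.368% at 5 to 20 kb from a gene end. It was 0.745% at 20 to 50 kb, 0.823% at 50 to 100 kb and 1.01% beyond 100 kb, where 32 of 3157 distal peaks were gains. Losses went from 4.02% in the nearest class to 10.3% in the farthest. The most remote gains lie 875 kb from Tmeff2, 579 kb from Isl1, a LIM homeobox gene, and 436 kb from Dph6, a gene of diphthamide synthesis. The Tmeff2 gain had 153 reads under GSK3368712 and 98.4 in DMSO, the Isl1 gain 231 under GSK3368712 and 148 in DMSO, and the Dph6 gain 130 under GSK3368712 and 64.9 in DMSO.

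**Figure D4:**
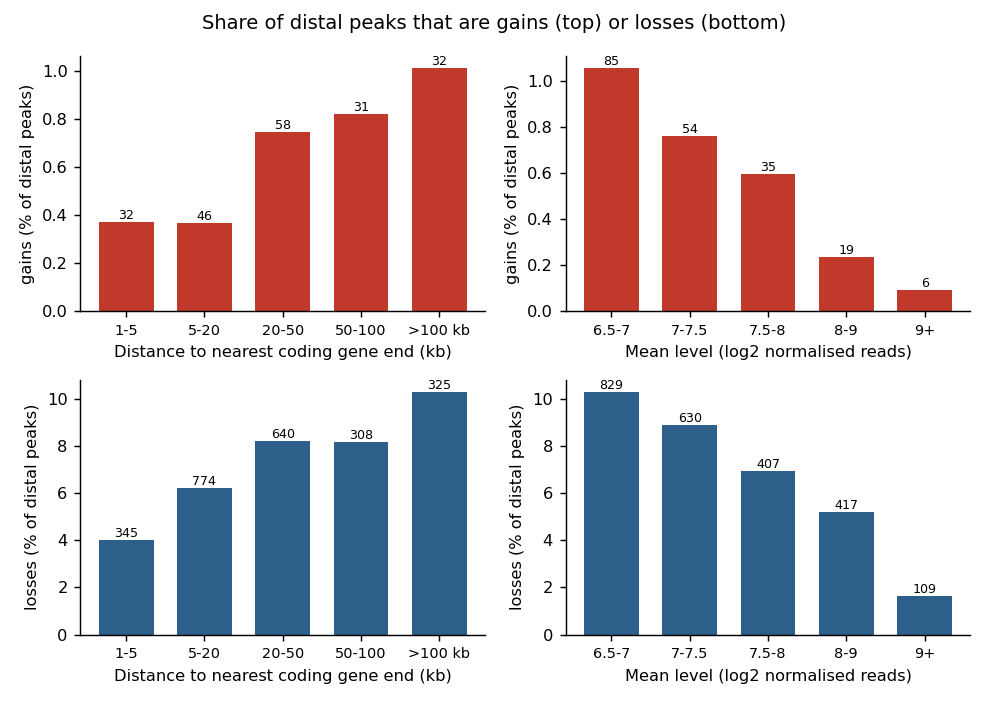
Bars give the percentage of distal peaks that were gains (top) or losses (bottom) by distance to the nearest coding gene end (left, kb) and by mean level (right, log2 normalised reads), with the number of peaks on each bar. Gains go from 0.373% nearest to gene ends to 1.01% beyond 100 kb, and from 1.06% in the weakest bin to 0.0892% in the strongest.

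Of the 199 gains, 82 lay inside a coding gene and 117 between genes. The share inside genes was 41.2% (Wilson interval at 95%, 34.6 to 48.1%, for counting error only and with peaks taken as independent, which they are not). It was 51.1% for losses and 53.3% for the other distal peaks. By level it was 36.5% for gains and 53.7% for other distal peaks at 6.5 to 7, and 38.9% and 52.8% at 7 to 7.5. The order reversed at 7.5 to 8, with 54.3% for gains and 52.0% for others. It was 42.1% and 52.9% at 8 to 9, and 50% and 55.0% at 9 and above. Gains made up 0.432% of distal peaks inside genes and 0.697% of those between genes, while losses made up 6.43% inside and 6.97% between genes. Gains inside and outside genes had median differences of 0.71 and 0.73 log2, with the minimum set by the rule. Median levels of gains inside genes were 7.55 log2 under GSK3368712 and 6.83 in DMSO. Outside genes they were 7.37 under GSK3368712 and 6.63 in DMSO. The other distal peaks had 7.74 under GSK3368712 and 7.80 in DMSO inside genes, and 7.72 and 7.80 outside. The end of a noncoding gene or pseudogene lay within 1 kb of 14 gains, or 7.04%, against 4.89% of losses and 7.29% of other distal peaks.

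The share of gains varied between chromosomes, which was not tested. Chromosome 15 had 19 gains among 1896 distal peaks, or 1.00%, and chromosome 2 had 26 among 2836, or 0.917%. Chromosomes 13 and 6 followed, at 0.837% and 0.821%. Chromosome 3 had the lowest share above 0, with 5 of 1985 or 0.252%. On X 0 of 451 distal peaks were gains, which allows a share of up to 0.665%, above the share over all chromosomes. Losses were 6.804% on chromosome 15, 7.65% on chromosome 2, 8.25% on chromosome 13, 7.23% on chromosome 6 and 6.85% on chromosome 3. All of these lie above the 6.69% over all distal peaks, though in another order than the gains.

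Most gains stood alone. Within 50 kb of its centre a gain had a median of 4 other distal peaks, as did losses and other distal peaks. Another gain lay in that window for 16 of 199 gains, or 8.04%, against 1.76% of losses and 2.36% of other distal peaks. A loss lay in it for 37 gains, or 18.6%, against 30.4% of losses and 22.1% of other distal peaks. The peaks around a gain that were not gains themselves had a median difference of -0.03 log2, against -0.16 around losses and -0.095 around other distal peaks. Gains were left out of the neighbours of each class but losses were kept, so the values for gains and losses are not mirrored. Losses were 4.98% of these neighbours around gains, 9.49% around losses and 6.18% around other distal peaks. The median over a peak's neighbours was above 0 for 39.0% of the gains with such neighbours and for 23.7% of other distal peaks.

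The 16 gains with a close neighbour form 8 pairs, 4 of them on chromosome 2. These 4 lie near Col5a1, with gains 19.7 kb apart, near or inside Lmx1b, a LIM homeobox gene, inside the formin gene Fmnl2, and near Trp53i11. The Trp53i11 pair lies 5.59 kb apart and had 139 and 290 reads under GSK3368712 against 46.2 and 175 in DMSO. At Lmx1b both gains had 162 reads under GSK3368712, against 93.7 and 97.0 in DMSO. The others lie in Ahnak, Hspg2 and Necab2 and 198 to 199 kb from Tpra1, and in these the peaks are 4.8 kb apart or closer.

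Hspg2 encodes perlecan, a proteoglycan of basement membranes. Its gains are 375 and 208 bp wide and 0.866 kb apart on chromosome 4 from 137497403 to 137498559. They had 252 and 168 reads under GSK3368712 against 148 and 101.1 in DMSO, and both were called in 2 GSK3368712 libraries and 0 DMSO libraries. Necab2, a neuronal calcium-binding protein gene, had gains of 0.65 and 0.64 log2, and its remaining distal peak had 0.56. All 3 distal peaks of Necab2 were higher under GSK3368712, though the rule sets a minimum for the 2 gains, which lie 1.07 kb apart.

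By gene, the 199 gains were assigned to 187 genes, of which 10 had 2 gains and 1 had 3. That gene is Fmnl2, which encodes an actin-nucleating formin. Its gains had 181, 133 and 126 reads under GSK3368712 against 89.9, 72.0 and 81.6 in DMSO. The other 10 of its 13 distal peaks were not gains, and its lowest difference was -0.42 log2. At Smg6 2 gains and 2 losses stood among 17 distal peaks, with differences from -1.02 to 1.60 log2, and Col5a1, Ahnak and Isl1 also had 2 of each. Sorcs2 had 2 gains and 0 losses among 23 distal peaks, with a median difference of -0.01. At Lmx1b and Trp53i11 the median over distal peaks was 0.16 and 0.29 log2. Of the 187 genes, 13 had no distal peak other than gains. In the other 174 the median difference of the distal peaks that were not gains was above 0 in 58, 0 in 3 and under 0 in 113.

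**Figure D5:**
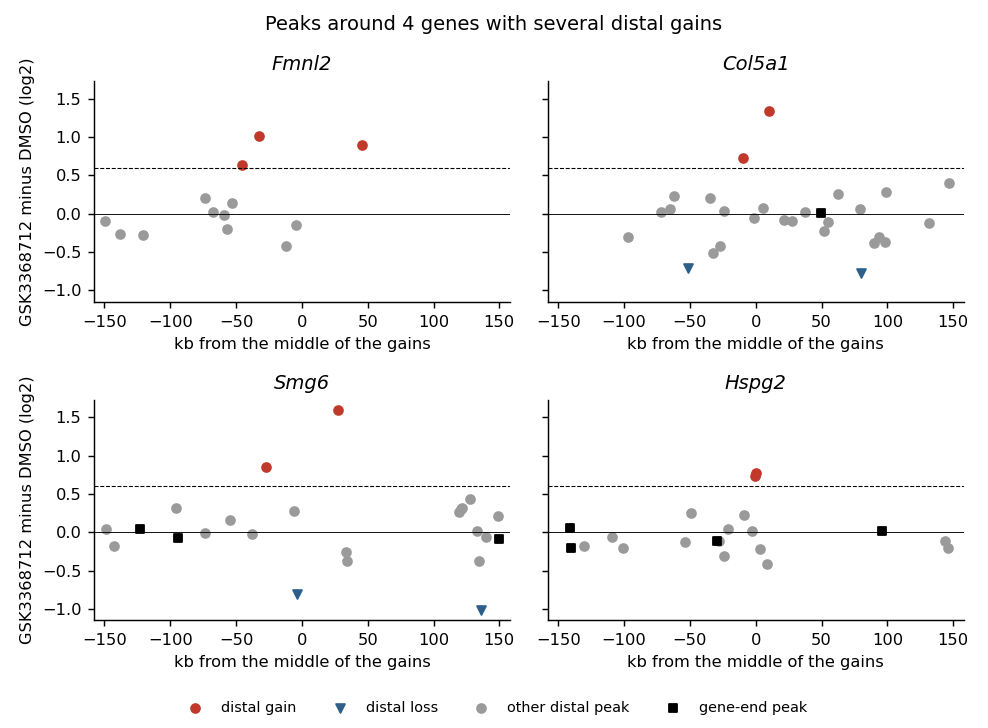
GSK3368712 minus DMSO (y, log2) of each peak with a mean level of at least 6.5 within 150 kb of the middle of the gains (x, kb) assigned to Fmnl2, Col5a1, Smg6 and Hspg2. Distal gains are red, distal losses blue triangles, other distal peaks grey and gene-end peaks black squares, and the dashed line is at 0.6. The other distal peaks had medians of -0.12, -0.08, 0.02 and -0.12 log2, losses included.

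The ends of the same genes were compared too. Of the 187 genes, 104 had a gene-end peak at the level minimum, and the strongest such peak per gene had a median difference of -0.01 log2, with quartiles of -0.085 and 0.06. The median was -0.03 over 9649 other genes. By that peak 0 of the 104 genes had a gene-end gain or loss of 0.6 log2, and of the 9649 other genes 6 had a gain and 46 a loss, so that a count of 0 in 104 does not set these genes apart. The largest were 0.40 at Ramp1, 0.39 at Ngfr and 0.38 at Ada, where the gene-end peak had 8.22 log2 under GSK3368712 and 7.84 in DMSO. The lowest was -0.57 at Smug1. Which transcripts changed was not measured in these libraries.

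Among the gene lists, those of the actin cytoskeleton and of collagens had the most gains for their number of distal peaks, apart from a list with 14 such peaks, and these shares were not tested. Of 44 genes of the actin cytoskeleton and focal adhesions, 7 had a gain. These were Ahnak, Arap1, Capzb and Fmnl2, described above, and Tpm1, Vcl and Cald1, which encode tropomyosin, vinculin and caldesmon. The Tpm1 gain had 164 reads under GSK3368712 and 94.4 in DMSO, the Vcl gain 212 under GSK3368712 and 131 in DMSO, and the Cald1 gain 247 under GSK3368712 and 163 in DMSO. Gains made up 10 of 313 distal peaks of this list, or 3.19%, against 0.556% over all genes. Losses were 9, or 2.88%, against 6.69% over all genes, and the median difference was -0.14 log2. The list was written with earlier results of these data known and includes genes with gains seen there, so the count is no independent evidence.

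Of 16 collagen genes 3 had a gain, with 4 gains and 5 losses among 115 distal peaks, and a median of -0.04 log2. Beside Col5a1, which had a second gain with 177 reads under GSK3368712 and 107 in DMSO, these were Col4a1 and Col1a2. A gain 42.3 kb from Col4a1, a basement membrane collagen gene, had 560 reads under GSK3368712 and 333 in DMSO. A gain 19.97 kb from Col1a2, a type I collagen gene, had 172 under GSK3368712 and 84.4 in DMSO. Of 33 other matrix genes 3 had a gain, with 4 gains and 13 losses among 166 distal peaks and a median of -0.135 log2. These were Hspg2, Lama5 and Pkdcc, a secreted kinase gene whose gain lies 314 kb away with 199 reads under GSK3368712 and 95.01 in DMSO. Gains were 3.48% of the distal peaks of collagen genes and 2.41% of those of the other matrix genes, against 0.556% over all genes, and losses were 4.35% and 7.83%, against 6.69%. The Col5a1 and Pkdcc gains were among those seen in earlier results.

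Other lists had 2 gains or fewer each. Of 29 genes of epithelial junctions and keratins 2 had a gain, Jup and the plectin gene Plec, with 156 reads under GSK3368712 and 99.04 in DMSO at Plec. Of the list's 108 distal peaks 1.85% were gains, and 6, or 5.56%, were losses, against 6.69% losses over all genes. Of 40 interferon response and sensing genes 2 had one, the GTPase gene Irgm2 and the receptor gene Ifngr1, or 2.82% of 71 distal peaks. Both shares of gains were above that over all genes and rest on 2 peaks each. These lists too were written with earlier results of these data known. The Irgm2 gain had 251 reads under GSK3368712 and 123 in DMSO, and the Ifngr1 gain 194 under GSK3368712 and 126 in DMSO. Of 34 cytokine, chemokine and NF-kB genes 1 had a gain, the TNF receptor gene Tnfrsf1b with 413 reads under GSK3368712 and 252 in DMSO, while 11 had a loss. Of 26 genes of AP-1 and other early response factors 1 had a gain, Fos at 49.95 kb with 133 reads under GSK3368712 and 86.2 in DMSO, while 10 had a loss. Gains were 0.781% of the 128 distal peaks of the cytokine list and 0.474% of the 211 of the AP-1 list, near the share over all genes. Losses were 11.7% of the distal peaks of the cytokine list and 7.58% of those of the AP-1 list, against 6.69% over all genes.

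Of 31 axon guidance genes Nrp1 had a gain, 262 kb away with 149 reads under GSK3368712 and 88.0 in DMSO. Of 33 Wnt and intestinal lineage genes Gata4, an endoderm and heart factor gene, had one at 2.70 kb, with 309 reads under GSK3368712 and 197 in DMSO. Of 37 genes of RNA-binding proteins and splicing factors, Smg6 alone had gains. Gains were 0.585% of the 171 distal peaks of the axon guidance list and 0.599% of the 167 of the Wnt list. Both are near the 0.556% over all genes. They were 1.18% of the 170 distal peaks of the RNA-binding list, which rests on 2 peaks. No gain was assigned to 34 genes of TGF-beta, SMAD and Hippo signalling, to 35 receptor tyrosine kinase and RAS-MAPK genes or to 16 arginine methyltransferase and partner genes. These lists had 188, 152 and 50 distal peaks with 18, 16 and 5 losses. Their shares of losses were 9.57%, 10.5% and 10%, against 6.69% over all genes, which was not tested. At the share of gains over all genes about 1 gain or fewer would fall on each of these lists, so their counts of 0 gains do not set them apart.

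Among markers of other cell types, the 18 blood cell genes had 2 gains among 14 distal peaks, or 14.3%, near Tmem119 and inside Cd200r2, and 0 losses, against 0.556% gains over all genes. The Cd200r2 gain had 244 reads under GSK3368712 and 119 in DMSO. The 14 fibroblast and endothelial genes had 2, at Dcn and Col1a2, among 68 distal peaks, or 2.94%, and the 7 melanocyte genes 0 among 9. These marker lists were written with earlier results of these data known, so their shares are no independent evidence. The shares of the blood cell and fibroblast lists rest on 2 gains each. The gene-end peaks of Tmem119, Dcn and Col1a2 differed by 0.01, -0.21 and 0.11 log2, and that of Cd200r2 had 4.8 log2 under GSK3368712 and 4.23 in DMSO, a level below the minimum used here. The part of other cells in these gains was not tested.

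The columns of peak calls were assigned to the groups from the levels, so that calls and levels agree by construction. Of the 199 gains, 174 were called in both libraries of each group, 17 in 2 GSK3368712 libraries and 1 DMSO library, 7 in 2 and 0, and 1 in 1 of each. Fewer DMSO than GSK3368712 libraries thus held the peak at 24 gains, or 12.1%, against 0.859% of other distal peaks. The 7 gains called in no DMSO library lie near Ccn4, Ccdc9b, Tpm1, D630003M21Rik and Bag5 and inside Hspg2, where 2 lie. They had 67.2 to 148 normalised reads in DMSO, so a gain without a call there still had reads. These calls come from the same libraries as the levels that chose the gains, and they add no independent evidence. Most gains were therefore peaks called in every library.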

How the data were processed

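ATAC-seq, in which a transposase cuts and tags accessible DNA, was run on 4 libraries, 2 with GSK3368712 and 2 with DMSO. The submitters' processing notes name mm10, DESeq2, DiffBind 2.8.0, MACS2 2.1.1.20160309, Picard 1.113 and HISAT2 2.1.0. Their settings, the transposase offset and any blacklist were not given in the sources used here. Deposited by the authors is a table of peaks with log2 mean normalised reads per group. The deposited p-value, adjusted p-value and log2 fold columns were not used, and no test was run. Which group each deposited column of peak calls belongs to was read from the levels.

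Levels have 2 decimals, and thresholds were applied to hundredths. Gene ends come from 21900 protein-coding genes of RefSeq GRCm38.p6. Peaks inside genes were assigned to the smallest gene around the centre, others to the nearest end. Motifs were searched in 32851 windows of RefSeq starts, which leave out chromosome 18. No genome was used, so sequence features of whole peaks are not analysed here. Of the symbols of the 16 gene lists, 2 did not match a protein-coding gene. The members and the lists were chosen with earlier results of these data known. Named peaks are the 15 largest differences, the 5 highest levels, the 5 widest, the 3 farthest, 3 on each side of each threshold, genes with 2 or more gains and genes of the lists. Peaks over transcript starts, over a microRNA or without a DMSO call, and the gene-end peaks given, were named after their values were seen. The annotation was checked on simulated positions with Python 3.11.15, pandas 2.3.3 and scipy 1.17.1.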

Additional observations from a re-analysis of the deposited data

How the results depend on the processing

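No paired analysis was possible because the table holds group means and no value per library, and for the same reason leaving out a replicate could not be run. The count of 199 distal gains became 369 at a level of at least 6, 114 at 7, 384 at a difference of at least 0.5, 64 at 0.8 and 27 at 1. It became 307 both with groups scaled to their summed reads, an offset of -0.08 log2, and with differences centred on their median of -0.07. Either scaling adds to each difference, so all 199 stay gains by construction. The median width of 710 bp became 621 bp at level 6, 802 bp at level 7 and 777 bp at a difference of 1. The median distance of 27.6 kb became 19.97 kb at a difference of 1 and, by construction, 34.2 kb beyond 5 kb. List genes with a gain, 25 in all, fell to 14 and 13 at differences of 0.8 and 1, since fewer gains remain. Gains with another within 50 kb were 0% at a difference of 1. The share inside genes stayed within its interval under each alternative run, though at a difference of 1 it was 48.1%, on the upper limit. The other settings on distance, gene ends and peak calls moved none of these values beyond the limits set. Motifs over whole peaks were not run. Depth per library is unknown and limits every value.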
